A study of Mus musculus with 9 samples.

Results

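The 10 genes described here are commonly used to mark neural stem cells and radial glia: Nes, Vim, Sox2, Sox9, Id4, Msi1, Prom1, Cd44, Tnc and Fabp7. They were chosen by symbol, and all 10 were found among the 17482 genes of the deposited table and passed the filter on low values. Their levels were compared in bulk RNA sequencing of 9 libraries from mouse tumour tissue recorded as MB, at postnatal day 8 or 9. YSGr (rescued, n = 3) and YSGnr (non-rescued, n = 3) both had the genotype fYap1;fSMO-M2;hGFAPcre, and SG (n = 3) had fSMO-M2;hGFAPcre. All 3 groups therefore carried SMO-M2, an activated mutant of the Hedgehog signal transducer Smoothened, and a Cre recombinase under the human GFAP promoter. YSGr and YSGnr also carried a floxed allele of Yap1, the Hippo pathway coactivator. By its title the study concerns Yap1, immune evasion and differences between the sexes. The labels define neither rescue nor the number of animals behind a library, so a p-value here reflects how far libraries differ, and part of that may be technical.

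Neural stem cells of the developing brain and their radial glial forms span the tissue with long processes built on nestin and vimentin filaments. SOX2 and SOX9 are transcription factors of their identity, ID4 is an inhibitor of basic helix-loop-helix factors, and Musashi-1 is an RNA-binding protein that holds back translation of differentiation messages. Prominin-1 (CD133) and CD44 are surface proteins used to isolate stem-like cells, tenascin-C is a matrix protein of the stem cell niche, and FABP7 is the brain lipid-binding protein of radial glia. In mouse tumours driven by Hedgehog signalling, SOX2 is known to mark a small, slowly dividing population that can propagate the tumour. The human GFAP promoter is active in radial glia and in progenitors of cerebellar neurons and glia, so floxed alleles are expected to recombine in cells that can express these genes. Bergmann glia and astrocytes express many of the same genes, including Sox9, Fabp7, Vim, Id4 and Tnc.

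Against SG, the filament gene Nes and the transcription factor gene Sox2 fell in both YSGr and YSGnr. Nes was 2.82-fold lower in YSGr and 3.05-fold lower in YSGnr, and Sox2 was 1.88-fold lower in YSGr and 2.67-fold lower in YSGnr. Id4 was 2.96-fold higher in YSGr than in YSGnr. The remaining 7 genes were not called in any of the 3 comparisons. A gene was called at an adjusted p below 0.05 in limma, with Benjamini-Hochberg adjustment over 15251 tested genes. These calls depended on single libraries. In the 9 fits without 1 library, Nes was called in 4 in YSGr and 5 in YSGnr, and Sox2 in 5 and 6. For each comparison, 3 of the 9 left out a library of the group not compared. Those fits all kept the Nes and Sox2 calls, so every loss came where a compared library was left out. The Id4 call between YSGr and YSGnr was kept in 2 of the 9.

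The promoters of the genes that these results turn on are shown so that their sequences can be read beside the values. They come from RefSeq (GRCm38.p6), which gave windows for 8 of the 10 genes, and each holds the 250 bases before the annotated start, written on the strand of the gene. Capitals mark exact words of 4 families searched on both strands: ACAAAG or ACAAT for SOX factors, GGAATG for TEAD factors, TGGGAA for RBPJ and CANNTG for E-boxes.

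Nes, chr3:87970843-87971092, plus strand: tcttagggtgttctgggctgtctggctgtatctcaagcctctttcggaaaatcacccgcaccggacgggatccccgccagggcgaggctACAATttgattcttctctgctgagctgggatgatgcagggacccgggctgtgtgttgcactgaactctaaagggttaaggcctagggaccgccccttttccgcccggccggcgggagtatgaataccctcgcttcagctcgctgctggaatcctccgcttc
Sox2, chr3:34649745-34649994, plus strand: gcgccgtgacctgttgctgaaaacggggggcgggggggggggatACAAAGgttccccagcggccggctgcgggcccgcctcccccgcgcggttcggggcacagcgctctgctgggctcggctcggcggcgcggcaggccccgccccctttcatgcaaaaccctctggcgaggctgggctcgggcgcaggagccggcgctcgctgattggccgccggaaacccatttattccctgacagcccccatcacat
Id4, chr13:48260866-48261115, plus strand: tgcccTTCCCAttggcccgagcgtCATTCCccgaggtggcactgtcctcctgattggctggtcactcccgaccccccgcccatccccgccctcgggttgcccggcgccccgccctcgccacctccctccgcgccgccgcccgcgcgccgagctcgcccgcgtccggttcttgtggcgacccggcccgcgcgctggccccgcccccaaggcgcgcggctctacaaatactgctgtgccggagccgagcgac
Tnc, chr4:64047016-64047265, minus strand: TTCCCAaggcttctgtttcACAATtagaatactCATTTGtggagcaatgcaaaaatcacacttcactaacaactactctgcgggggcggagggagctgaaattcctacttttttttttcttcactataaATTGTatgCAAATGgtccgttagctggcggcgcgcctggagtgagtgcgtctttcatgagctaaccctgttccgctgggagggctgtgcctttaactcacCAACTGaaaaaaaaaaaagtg

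The Nes window held ACAAT, which began 161 bases before the start, and the Sox2 window held ACAAAG, which began 206 bases before it. The Id4 window held the TEAD word on the opposite strand (CATTCC, 226 bases before the start) and the RBPJ word on the opposite strand (TTCCCA, 245 bases before). The Tnc window held 1 RBPJ word, 1 SOX word on each strand (ACAAT and ATTGT) and 3 E-boxes. Among 32851 windows of the same length, ACAAT occurred in 27.7%, ACAAAG in 16.5%, the TEAD word in 12.6%, the RBPJ word in 21.6% and an E-box in 66.2%. The GLI core CCACCCA, in 8.1% of all windows, was found in 0 of the 10 windows of the 8 genes. The RBPJ word was in 6 of these 10 windows, ACAAT and an E-box in 4 each, and ACAAAG and the TEAD word in 1 each; a gene with more than 1 window counts more than once. No marked words overlapped. These are matches of letters, and binding was not measured. The Nes and Sox2 windows had a GC content of 58.8% and 72.0%, and the Id4 and Tnc windows of 75.6% and 44.8%.

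The libraries were not alike in ways that touch these genes. Yap1, the targeted gene, stood at 4.44, 3.31 and 2.79 log2 CPM (reads scaled to library size, on a log2 scale) in YSGr replicates 1, 2 and 3, at 2.79, 2.57 and 1.99 in YSGnr, and at 5.04, 5.11 and 5.03 in SG. YSGnr replicate 1 had 9.65 M (mega) back-calculated reads, with 63.4% in Yam1 and Lars2, against 17.2 to 29.2 M and 1.98% to 8.15% in the other 8. The 10 genes had between 41.0 and 977 estimated reads there, against 302 to 18545 in the others, so it is the least precise library. The granule progenitor and tumour factor Atoh1 was at 3.89, 3.34 and 6.89 log2 CPM in YSGr, 6.25, 6.31 and 6.53 in YSGnr and 5.89, 6.76 and 6.15 in SG. It was detected in every library, which does not separate tumour cells from granule progenitors. YSGr replicates 1 and 2 lay below all other libraries, and YSGr replicate 3 stood apart from them. Xist was at 9.81 or above in the 3 YSGr libraries and at 10.81 in YSGnr replicate 1, and at -0.25 or below in the other 5, while Ddx3y was at the table's minimum, -3.52, in those 4 libraries and at 4.97 or above in the other 5. YSGr and SG shared no library type in these sex-linked transcripts, so this difference and the comparison of YSGr with SG cannot be told apart. YSGnr replicates 2 and 3 and the SG libraries were alike in them. With YSGnr replicate 1 left out, YSGr and YSGnr shared no library type either, and their comparison cannot then be told apart from this difference.

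Nes encodes nestin, an intermediate filament protein of dividing neural progenitors (ENSMUSG00000004891.16, chromosome 3, 87971078 to 87980451, GRCm38). It stood at 5.54, 5.47 and 6.25 log2 CPM in YSGr replicates 1, 2 and 3, at 5.53, 6.24 and 5.14 in YSGnr, and at 7.25, 7.32 and 7.17 in SG. All 6 libraries with the floxed Yap1 allele lay below all 3 SG libraries, and YSGr and YSGnr overlapped. The mean was 5.75 ± 0.43 in YSGr, 5.64 ± 0.56 in YSGnr and 7.25 ± 0.07 in SG (SD, n = 3 each). Nes fell by 1.49 log2 units in YSGr (SE 0.287, limma adjusted p = 0.0161) and fell by 1.61 in YSGnr (adjusted p = 0.0257). YSGr and YSGnr differed by 0.12 log2 units, with a 95% interval of -0.53 to 0.76 (adjusted p = 0.789). In YSGr Nes was no longer called with SG replicate 1, 2 or 3 left out (adjusted p = 0.0712, 0.071 and 0.0581) or with YSGr replicate 1 or 2 left out (adjusted p = 0.0691 and 0.074). Its YSGnr call ended with SG replicate 1, 2 or 3 left out (adjusted p = 0.136, 0.123 and 0.106), without YSGnr replicate 3 (adjusted p = 0.0935) and with a transcript length and GC trend removed (-1.39, adjusted p = 0.0542).

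Sox2 encodes a SOXB1 transcription factor needed to keep neural progenitors undifferentiated (ENSMUSG00000074637.7, chromosome 3, 34650405 to 34652461, single exon). Its values were 5.37, 5.31 and 5.06 log2 CPM in YSGr, 4.46, 5.09 and 4.68 in YSGnr and 6.15, 6.16 and 6.17 in SG. The 3 SG libraries were almost equal, and every YSGr and YSGnr library was below them. The mean was 5.25 ± 0.17 in YSGr, 4.75 ± 0.32 in YSGnr and 6.16 ± 0.01 in SG. Sox2 fell by 0.91 log2 units in YSGr (SE 0.172, adjusted p = 0.0149) and by 1.42 in YSGnr (adjusted p = 0.00887). The difference of YSGr from YSGnr, 0.50 (95% interval 0.12 to 0.89), was not called (adjusted p = 0.0903). Sox2 was no longer called in YSGr without SG replicate 1, 2 or 3 (adjusted p = 0.0704, 0.0669 and 0.0646) or YSGr replicate 2 (adjusted p = 0.0566), nor in YSGnr without SG replicate 1, 2 or 3 (adjusted p = 0.0727, 0.0707 and 0.0639). Without YSGnr replicate 1, where YSGnr and SG are alike in Xist and Ddx3y, Sox2 fell by 1.27 in YSGnr (adjusted p = 0.00639) and Nes fell by 1.56 (adjusted p = 0.0195). With the length and GC trend removed as well, Sox2 was still called (-1.59, adjusted p = 0.00889) and Nes was not (-1.24, adjusted p = 0.0707).

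**Figure D1:**
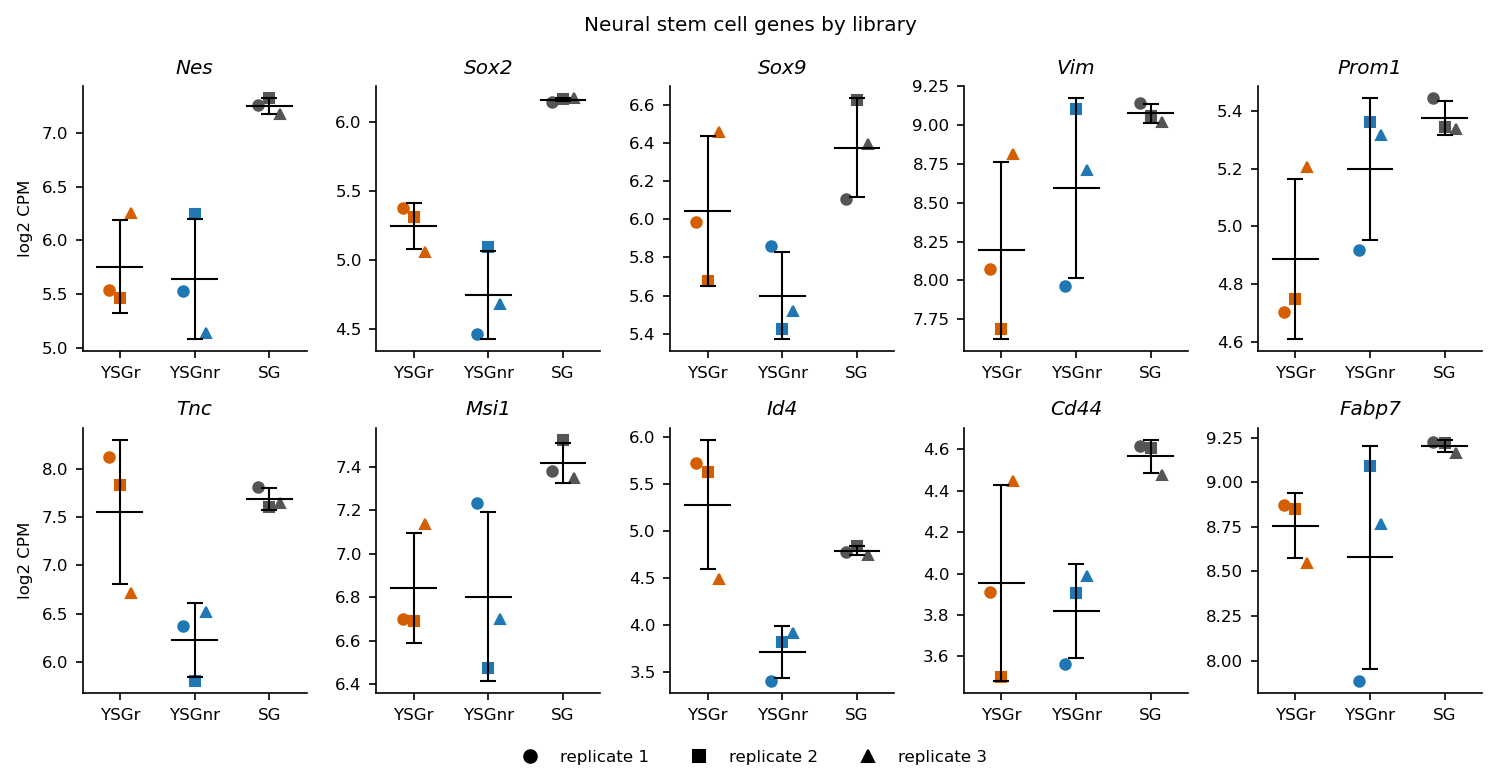
The log2 CPM of each of the 10 genes is plotted by library (symbols mark the replicate number), with the group mean (long line) and SD (bars) of 3 libraries; each panel has its own axis, which does not start at 0. For Nes and Sox2 every YSGr and YSGnr library lies below the 3 SG libraries, and for Id4 and Tnc YSGr replicates 1 and 2 lie above all others.

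Counted over the 10 genes, 2 were called lower and 0 higher in YSGr against SG, where 3.97% of all tested genes were called lower and 6.58% higher. In the same comparison 9 of 10 had a fold change below 0 (52.3% of all genes), and 6 had an unadjusted p below 0.05 (26.1% of all genes). In 7 of 10 all YSGr libraries lay below all SG libraries, which held for 17.3% of all tested genes, and in 0 all lay above (19.5% of all genes). The median log2 fold change was -0.53, beside -0.02 over all tested genes. In YSGnr against SG 2 of 10 were called lower and 0 higher, beside 2.17% and 1.19% of all tested genes, and all 10 lay below 0 (50.7% of all genes). An unadjusted p below 0.05 was found for 8 of them, beside 25.6% of all genes. In 8 of 10 the YSGnr libraries lay below all SG libraries, beside 21.3% of all genes, and in 0 above (16.9%), with a median of -0.76 against -0.01. The comparisons of YSGr and of YSGnr with SG share the 3 SG libraries, so their directions are not independent of each other. In bulk tissue fewer cells of a type and less RNA per cell cannot be told apart.

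**Figure D2:**
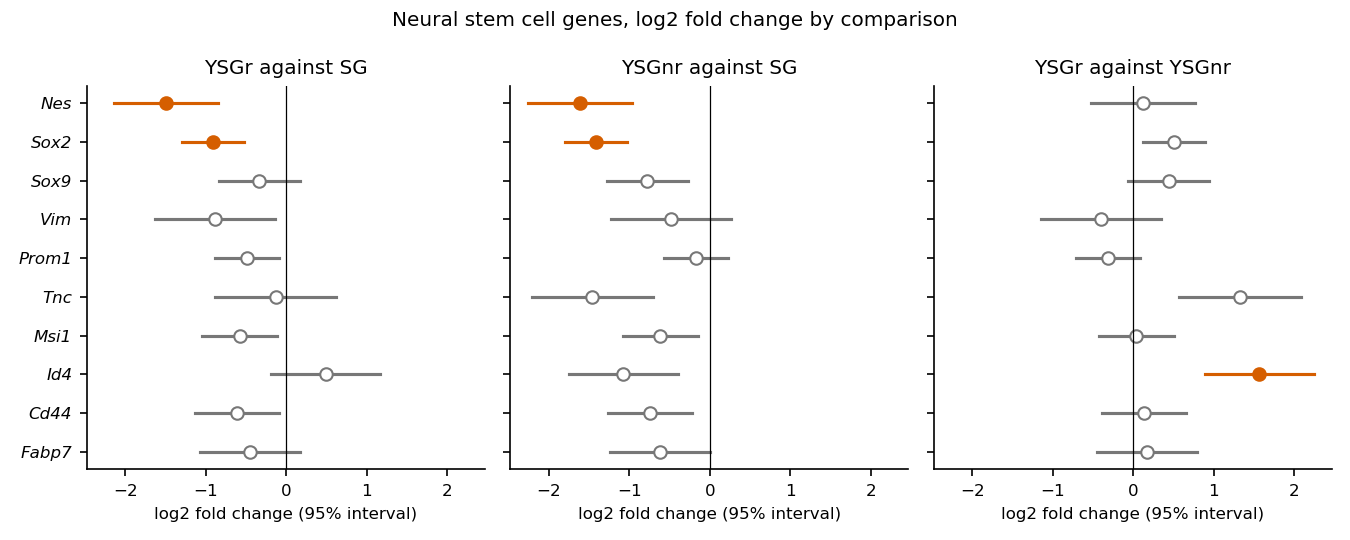
Log2 fold changes of the 10 genes with 95% intervals are drawn for YSGr against SG, YSGnr against SG and YSGr against YSGnr; filled orange points were called (adjusted p below 0.05) and open grey points were not. Nes and Sox2 are filled in both comparisons with SG, and Id4 in YSGr against YSGnr, at 1.57.

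Vim, the gene of the vimentin filament with which nestin assembles, had an SD of 0.57 in YSGr, 0.58 in YSGnr and 0.06 in SG. Its level was 8.07, 7.69 and 8.82 log2 CPM in YSGr, 7.96, 9.11 and 8.71 in YSGnr and 9.14, 9.06 and 9.02 in SG. The YSGr libraries lay below SG while YSGnr replicate 2 lay within the SG range. The log2 fold change was -0.88 in YSGr (adjusted p = 0.127) and -0.48 in YSGnr (adjusted p = 0.372), so neither was called. Without YSGr replicate 3 the YSGr value was -1.20 and was called (limma adjusted p = 0.017). In that fit 27.9% of all tested genes were called in YSGr against SG, beside 10.5% with all libraries. The YSGnr value was -0.17 without YSGnr replicate 1 and -0.74 without YSGnr replicate 2, called in neither fit.

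Id4 encodes a dominant-negative helix-loop-helix protein that binds and blocks neurogenic partners (ENSMUSG00000021379.2, chromosome 13, 48261228 to 48266026). It reached 5.72, 5.62 and 4.49 log2 CPM in YSGr, against 3.40, 3.82 and 3.92 in YSGnr and 4.78, 4.84 and 4.75 in SG. YSGr replicates 1 and 2 were above SG, YSGr replicate 3 was below it, and the 3 YSGnr libraries were the lowest of the 9. The mean was 5.28 ± 0.69 in YSGr, 3.71 ± 0.28 in YSGnr and 4.79 ± 0.05 in SG. Id4 was higher in YSGr than in YSGnr by 1.57 log2 units (95% interval 0.89 to 2.25, SE 0.301, adjusted p = 0.0334). Against SG it stood 0.49 above in YSGr (adjusted p = 0.347) and -1.08 in YSGnr (adjusted p = 0.0774), neither called. Without YSGr replicate 3 the YSGr value was 0.89 and was called (limma adjusted p = 0.00505), beside 27.9% of all tested genes. The call between YSGr and YSGnr was lost without SG replicate 1, 2 or 3 (adjusted p = 0.0716, 0.0704 and 0.0709), without YSGr replicate 1 or 2 (adjusted p = 0.155 and 0.159), with YSGnr replicate 2 or 3 left out (adjusted p = 0.102 and 0.106) and with the 6 libraries of these groups alone (adjusted p = 0.155). Without YSGr replicate 3 the difference was 1.96 (limma adjusted p = 0.000212), beside 42.8% of all tested genes called. Without YSGnr replicate 1, where Id4 rests on 41.0 estimated reads, it was 1.41 (limma adjusted p = 0.0251), beside 31% called. In that last fit YSGr and YSGnr shared no library type in Xist and Ddx3y, so the group and sex-linked differences cannot be told apart.

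Tnc encodes tenascin-C, a hexameric matrix glycoprotein (ENSMUSG00000028364.15, chromosome 4, 63959785 to 64047015). Its levels were 8.12, 7.83 and 6.71 log2 CPM in YSGr, 6.37, 5.80 and 6.52 in YSGnr and 7.81, 7.60 and 7.65 in SG. As with Id4, YSGr replicates 1 and 2 were the highest and the YSGnr libraries the lowest, and no YSGr library overlapped YSGnr. YSGr exceeded YSGnr by 1.33 log2 units (95% interval 0.57 to 2.08), just short of the threshold (adjusted p = 0.0511). In YSGnr the log2 fold change against SG was -1.46 (adjusted p = 0.0503), and in YSGr it was -0.13 (adjusted p = 0.851). Without YSGr replicate 3 Tnc was called in YSGr against YSGnr (1.75, limma adjusted p = 0.000655), beside 42.8% of all tested genes. It was then also called in YSGnr against SG (limma adjusted p = 0.00455), beside 17.3%, though its value there does not depend on that library. Its value in YSGr against SG turned to 0.29 (limma adjusted p = 0.354). Without YSGnr replicate 1 Tnc was also called in YSGr against YSGnr (1.40, limma adjusted p = 0.0343) and in YSGnr against SG (-1.53, limma adjusted p = 0.0312). These calls stood beside 31% and 21.8% of all tested genes. In that fit YSGr and YSGnr shared no library type in Xist and Ddx3y, so the group and sex-linked differences between them cannot be told apart.

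Between YSGr and YSGnr 1 of the 10 genes was called, Id4, and it was higher, beside 5.09% of all tested genes called higher and 0.879% called lower. Id4 and Tnc were the 2 genes whose YSGr libraries all lay above the YSGnr libraries, which held for 15% of all tested genes, and in 0 of 10 all YSGr libraries lay below (7.46%). Of the 10, 2 had a difference below 0, beside 49.5% of all genes. The median log2 difference was 0.15 over the 10 genes and 0.01 over all genes, and 3 genes, Id4, Tnc and Sox2, had an unadjusted p below 0.05, a share near the 33.9% of all genes. The smallest differences were those of Msi1 (0.04) and Nes (0.12), and both changed sign under other settings, among them a transcript length and GC trend removed (-0.06 and -0.26).

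Sox9, a SOXE factor that starts gliogenesis and keeps stem cells multipotent, stood between 5.68 and 6.46 log2 CPM in YSGr, between 5.42 and 5.86 in YSGnr and between 6.10 and 6.62 in SG. The YSGnr libraries lay below SG and the YSGr libraries overlapped it. Its log2 fold change was -0.33 in YSGr (adjusted p = 0.393) and -0.77 in YSGnr (adjusted p = 0.0825). With 1 library left out the YSGr value lay between -0.54 and -0.15. The YSGnr value was called when YSGr replicate 3 was left out (limma adjusted p = 0.0232), beside 17.3% of all tested genes. That library is not in this comparison, so the value stayed the same and the test changed through the spread that all groups share. The value was also called when YSGnr replicate 1 was left out (limma adjusted p = 0.0333), beside 21.8% of all tested genes.

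Msi1, the Musashi-1 gene whose protein represses translation of Numb, ranged from 6.69 to 7.14 log2 CPM in YSGr, from 6.47 to 7.24 in YSGnr and from 7.35 to 7.52 in SG. Every library with the floxed Yap1 allele was below SG, by a mean of -0.58 log2 units in YSGr (adjusted p = 0.113) and -0.62 in YSGnr (adjusted p = 0.114). With YSGr replicate 3 left out both were called (limma adjusted p = 0.0283 and 0.0492), beside 27.9% and 17.3% of all tested genes. Both were also called with YSGnr replicate 1 left out (limma adjusted p = 0.0358 and 0.0165), beside 15.7% and 21.8%. Leaving out a library of one of these groups did not change the value of the other, only the spread that all groups share.

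Of the surface proteins, Cd44, the hyaluronan receptor gene, was at 3.50 to 4.45 log2 CPM in YSGr, 3.56 to 3.99 in YSGnr and 4.47 to 4.62 in SG. All YSGr and YSGnr libraries were below SG, with YSGr replicate 3 nearest to it. The log2 fold change was -0.61 in YSGr (limma adjusted p = 0.131) and -0.74 in YSGnr (limma adjusted p = 0.0981). Without YSGr replicate 3 both were called (limma adjusted p = 0.0089 and 0.0219), beside 27.9% and 17.3% of all tested genes. The YSGnr value itself does not depend on that library. The YSGr value was -0.39 without YSGr replicate 2, and the YSGnr value was -0.48 with the length and GC trend removed. Prom1, the gene of a pentaspan protein of membrane protrusions, was at 4.70 to 5.21 log2 CPM in YSGr, 4.92 to 5.36 in YSGnr and 5.34 to 5.45 in SG. Its YSGr libraries lay below SG (-0.49, adjusted p = 0.115), and those of YSGnr overlapped it (-0.18, adjusted p = 0.539; -0.04 without YSGnr replicate 1). Without YSGr replicate 3 the YSGr value was called (-0.65, limma adjusted p = 0.0136), beside 27.9% of all tested genes.

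Fabp7, which binds omega-3 fatty acids in radial and Bergmann glia, ranged from 8.55 to 8.87 log2 CPM in YSGr, from 7.88 to 9.09 in YSGnr and from 9.17 to 9.22 in SG. All YSGr and YSGnr libraries were below SG, and the lowest value, in YSGnr replicate 1, rests on 924 estimated reads. Neither the YSGr value (-0.45, adjusted p = 0.351) nor the YSGnr value (-0.62, adjusted p = 0.194) was called. The YSGr value shrank to -0.12 with the length and GC trend removed, and the YSGnr value to -0.28 without YSGnr replicate 1. Per kilobase of the longest annotated transcript, Fabp7 had the highest mean level of the 10 genes in SG (9.39 log2 CPM per kb), followed by Vim (7.53) and Msi1 (5.77), and Cd44 the lowest (2.08). Id4 averaged 3.33 log2 CPM per kb in YSGr, 1.77 in YSGnr and 2.84 in SG.

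Within YSGr some of the 10 genes were higher in replicate 3 than in replicates 1 and 2 and some were lower. In replicate 3 the level of Vim was 0.93, of Nes 0.75, of Cd44 0.74, of Sox9 0.63, of Prom1 0.48 and of Msi1 0.44 log2 units above the mean of replicates 1 and 2. Sox2 (-0.28), Fabp7 (-0.32), Id4 (-1.19) and Tnc (-1.27) were lower in replicate 3. So 6 of 10 were higher in replicate 3, a share near the 52.0% of all tested genes. Markers of other cells also differed between these libraries. Relative to the SG mean, the median of 11 astrocyte and Bergmann glia markers was 0.42, 0.37 and -0.20 in YSGr replicates 1, 2 and 3. That of 10 granule progenitor and Hedgehog tumour markers was -0.84, -1.20 and 0.01. In YSGnr replicates 1, 2 and 3 these medians were -0.57, -0.31 and -0.17, and 0.06, -0.02 and 0.10. The YSGr libraries also differed in how their differences from the SG mean followed transcript length. The Spearman rho was 0.153, 0.126 and -0.406 in YSGr replicates 1, 2 and 3. The part of these cell types in the levels of Id4 and Tnc was not tested, nor was that of transcript length in the differences within YSGr.

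**Figure D3:**
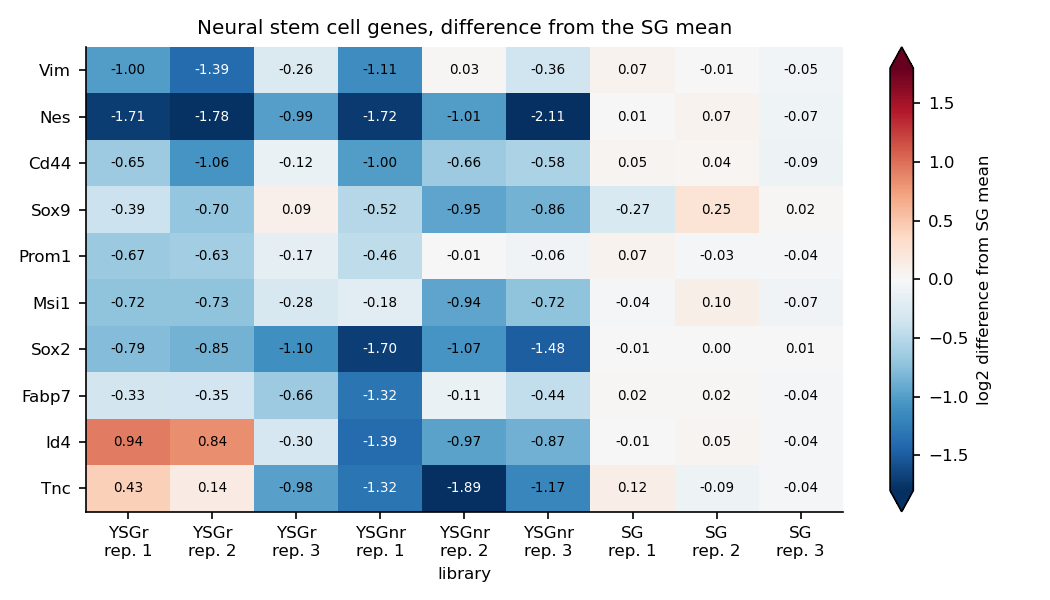
Each cell gives the log2 CPM of a gene in a library minus the SG mean of that gene (blue below, red above), with genes ordered by their difference between YSGr replicate 3 and replicates 1 and 2. Id4 and Tnc are above 0 in YSGr replicates 1 and 2 and below it in the 4 other YSGr and YSGnr libraries, while Nes and Sox2 are below 0 in all 6.

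When both YSGr replicate 3 and YSGnr replicate 1 were removed, 9 of the 10 genes were called in YSGr against SG, 8 lower and Id4 higher, with Tnc not called. In YSGnr against SG 7 were then called, all lower, and in YSGr against YSGnr 5 were called, 3 higher and 2 lower. YSGr and YSGnr then shared no library type in Xist and Ddx3y, so the group and sex-linked differences between them cannot be told apart. The counts over all genes rose as well, to 7556, 8074 and 9867 of 15251 (49.5%, 52.9% and 64.7%), against 1608, 512 and 910 with all libraries. Without SG replicate 1, 2 or 3, 0 of the 10 genes were called in any comparison (limma), beside 0.0525% to 2.73% of all tested genes. From 3 to 7 of the 10 had an unadjusted p below 0.05, beside 16.1% to 28.5% of all tested genes. In YSGr against YSGnr these were 3 of 10 in each fit, near the 28% to 28.5% of all tested genes.

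Other genes of neural stem cells and radial glia moved in both directions. Of 25 listed genes 24 were in the table and 23 were tested. In YSGr against SG 2 of the 23 rose and 6 fell, beside 6.58% and 3.97% of all tested genes. The median log2 fold change of the 23 was -0.46. The other SOXB1 genes, Sox1 and Sox3, fell in YSGr as Sox2 did. Sox1 was at 4.85, 4.81 and 6.70 log2 CPM in YSGr, 6.44, 6.76 and 6.38 in YSGnr and 7.50, 7.16 and 7.20 in SG, with a fold change of -1.83 in YSGr (adjusted p = 0.0299) and -0.76 in YSGnr, which was not called (adjusted p = 0.287). Sox3 was at 1.81, 1.96 and 1.72 in YSGr, 1.87, 1.87 and 1.76 in YSGnr and 2.98, 3.03 and 3.09 in SG, and fell in YSGr (-1.20, adjusted p = 0.00509) and in YSGnr (-1.20, adjusted p = 0.013). Sox3 lies on the X chromosome. Those that rose in YSGr were Gfap, the astrocyte filament gene (1.71, adjusted p = 0.0229), and Hopx, a homeodomain gene of outer radial glia in primates (1.42, adjusted p = 0.00129).

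Of all tested genes 1.19% were called higher and 2.17% lower in YSGnr against SG. Of the 23, 1 rose (Hopx, 0.68, limma adjusted p = 0.0377) and 7 fell, with a median of -0.64. Those that fell included Rfx4, a transcription factor gene of neural tube patterning (-1.75, adjusted p = 0.0162), the Notch effector Hes5 (-1.66, adjusted p = 0.0108), the receptor gene Notch1 (-1.64, adjusted p = 0.0329) and the receptor phosphatase gene Ptprz1 (-1.35, adjusted p = 0.0352). In YSGr against YSGnr 4 rose and 0 fell, beside 5.09% and 0.879% of all tested genes, with a median of 0.28. Those that rose included Rfx4 (1.17, adjusted p = 0.0429), Hopx (0.74, adjusted p = 0.0323) and the receptor gene Fgfr1 (0.60, adjusted p = 0.0423). With YSGr replicate 3 and YSGnr replicate 1 left out, 5 of the 23 were called higher and 11 lower in YSGr against SG. In YSGnr against SG the counts were 4 and 14, and in YSGr against YSGnr 13 and 5. In that fit 49.5%, 52.9% and 64.7% of all tested genes were called, in the same order.

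Paralogs did not follow the 10 genes as a block. Of 16 tested paralogs 2 rose and 2 fell in YSGr against SG, beside 6.58% and 3.97% of all tested genes. In YSGnr against SG 1 rose and 1 fell, beside 1.19% and 2.17%. In YSGr against YSGnr 2 rose and 0 fell, beside 5.09% and 0.879%. Sox1, Sox3 and Gfap are also in the preceding list of stem cell and radial glia genes, so their calls are counted in both. Gfap is counted again among the astrocyte markers. Fabp3, a fatty acid binding protein gene like Fabp7, was at 6.05, 6.32 and 5.78 log2 CPM in YSGr, 4.81, 5.13 and 5.02 in YSGnr and 4.05, 4.17 and 4.23 in SG. No group overlapped another, and it rose in YSGr (1.90, adjusted p = 0.000734) and in YSGnr (0.84, adjusted p = 0.0328), with Fabp7 below SG in all 6 libraries. Tnxb, a tenascin gene like Tnc, was higher in YSGr than in YSGnr (2.02, adjusted p = 0.0406).

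Among 18 tested binding partners and ligands 0 rose and 7 fell in YSGr against SG, beside 6.58% and 3.97% of all tested genes. They included Pou3f2, a partner of SOX2 on neural enhancers (-1.41, adjusted p = 0.016), Has2, which makes the CD44 ligand hyaluronan (-1.17, adjusted p = 0.0198), Msn, which links CD44 to actin (-0.88, adjusted p = 0.0389), and Itgav, a tenascin-binding integrin subunit gene (-0.86, adjusted p = 0.021). In YSGnr against SG none was called (limma), with 4 at an unadjusted p below 0.05, beside 25.6% of all tested genes. Without YSGr replicate 3 and YSGnr replicate 1 there was 1 called higher and 8 lower, beside 52.9% of all tested genes called. The most abundant of the partners and ligands were Tcf4 (-0.13) and Itgb1 (-0.17), with all libraries. In YSGr against YSGnr Has2 fell (-1.26, adjusted p = 0.0339) and 17 were not called.

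Markers of other cell types moved with the groups, and their part in the levels of the 10 genes was not tested. Called higher were 6.58%, 1.19% and 5.09% of all tested genes in YSGr against SG, YSGnr against SG and YSGr against YSGnr. Called lower were 3.97%, 2.17% and 0.879%, for comparison with the list counts here and below. Of 11 astrocyte and Bergmann glia markers 3 rose in YSGr against SG (Gfap, Aldoc and Timp4), Gdf10 alone fell in YSGnr against SG (-1.17, adjusted p = 0.0162), and Gdf10 alone was higher in YSGr than in YSGnr (1.05, adjusted p = 0.0272). Their summed level was 2502 to 3708 CPM in YSGr, 1920 to 2458 in YSGnr and 2644 to 2814 in SG. The sum of the 10 neural stem cell genes was 1222 to 1365 CPM in YSGr, 898 to 1463 in YSGnr and 1848 to 1943 in SG. Of 10 dividing cell markers 4 fell in YSGr against SG, and their sum was 979 to 1891 CPM in YSGr, 2225 to 2377 in YSGnr and 2386 to 2413 in SG. In YSGnr Nes and Sox2 were lower than in SG beside dividing cell markers of which Cenpe alone fell, and beside granule progenitor and tumour markers of which 0 of 10 were called, 0 of them with an unadjusted p below 0.05. YSGnr against SG was also fitted with YSGr replicate 3 and YSGnr replicate 1 left out. There 3 of the 10 dividing cell markers were called higher and 4 lower, and 1 and 4 of the 10 granule progenitor and tumour markers. In that fit 52.9% of all tested genes were called.

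The 8 mature granule neuron markers had 7, 5 and 8 genes higher in YSGr against SG, YSGnr against SG and YSGr against YSGnr, and the 7 myelin markers had 7, 2 and 0 (in the last, 5 at an unadjusted p below 0.05, and 5 called higher without YSGr replicate 3 and YSGnr replicate 1). Of 8 endothelial markers 3 fell in YSGnr against SG and the same 3, Kdr, Flt1 and Cdh5, were higher in YSGr than in YSGnr. Of 8 mural cell and fibroblast markers 1 rose in YSGr against SG, 2 fell in YSGnr against SG and 4 were higher in YSGr than in YSGnr, and of 4 Purkinje cell markers 2, 1 and 3 were higher in the 3 comparisons. Of 6 oligodendrocyte progenitor markers 3 fell in YSGr against SG, 0 were called in YSGnr against SG (2 at an unadjusted p below 0.05; 1 called higher and 3 lower without YSGr replicate 3 and YSGnr replicate 1), and 1 was higher and 1 lower in YSGr against YSGnr. The granule progenitor list had 1 gene called, Hhip, which fell in YSGr against SG (-2.37, adjusted p = 0.0136). No microglia or macrophage marker was called, with 1, 1 and 2 of 8 at an unadjusted p below 0.05 in the 3 comparisons. With both those libraries left out, 4 of the 8 were called lower in YSGr against SG. In YSGnr against SG 5 were then called higher and 1 lower, and in YSGr against YSGnr 5 lower. In that fit 49.5%, 52.9% and 64.7% of all tested genes were called in the 3 comparisons. These shares apply to every count in this paragraph with both libraries left out. Of 5 tested ependymal and choroid plexus markers 0 were called, with 1 at an unadjusted p below 0.05 in each comparison, and the choroid plexus gene Ttr varied between -1.01 and 9.86 log2 CPM within YSGr alone. With both libraries left out 1 fell, 2 rose and 1 fell, and 1 fell in the 3 comparisons. Of the listed genes named by the rule and called, 11 of 30 were called in all 9 fits without 1 library in YSGr against SG, 2 of 20 in YSGnr against SG and 0 of 24 in YSGr against YSGnr.

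**Figure D4:**
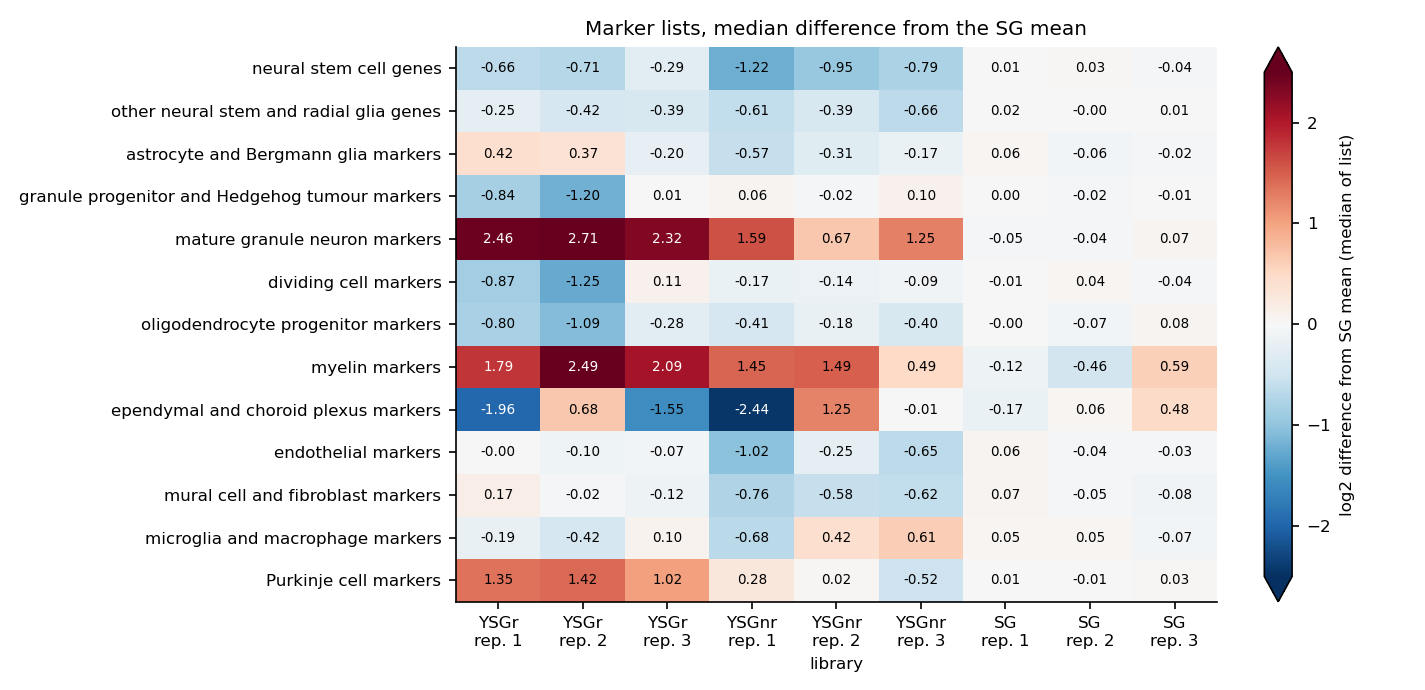
The median difference from the SG mean over each list is shown per library (log2 CPM, blue below, red above). The 10 genes are lowest in the YSGnr libraries, at -1.22, -0.95 and -0.79, while the astrocyte and Bergmann glia markers are above 0 in YSGr replicates 1 and 2, at 0.42 and 0.37.

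Over the 9 libraries Sox2 followed the mean of the other 9 genes most closely (Pearson r = 0.96), followed by Nes (0.821) and Cd44 (0.818), and Id4 least (0.336). The tested genes outside the set whose pattern was most like the mean of the 10 were Ccl21a (r = 0.997), Ppp2r1b (0.98), Antxr1 (0.979), Erbb2 (0.972) and Mtmr10 (0.969). Ppp2r1b, a phosphatase scaffold subunit gene, had values of 5.25, 5.10 and 5.22 log2 CPM in YSGr, 4.81, 5.04 and 4.87 in YSGnr and 5.51, 5.52 and 5.38 in SG. Erbb2, a receptor tyrosine kinase gene, had values of 2.88, 2.77 and 2.89 in YSGr, 2.45, 2.54 and 2.62 in YSGnr and 3.53, 3.80 and 3.58 in SG. Both order the groups as Sox2 does, with SG highest and YSGnr lowest. Ccl21a has near-identical copies in the mouse genome and was at the table's minimum in YSGnr replicate 1, so its value is uncertain. These correlations describe 9 libraries that fall into 3 groups, and carry no test.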

How the data were processed

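RNA from mouse tumour tissue was sequenced as total RNA at BGI on the DNBseq platform, per the labels' protocols. Per the submitters' processing notes, the build was mm10 and the tools included Bowtie2, RSEM, Trimmomatic, Picard and edgeR; no version is listed, and annotation and strandedness are not stated there. The single deposited table from the authors holds log2 CPM of 17482 genes in 9 libraries, which already carries their library scaling and an added count. Its lowest value was -3.52, and a fold change on this scale understates that of genes near it. Between 37.0% and 51.9% of the low values came out whole (tolerance 0.02 reads), so the counts were estimated and no count test was run.

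Groups followed the sample titles. The deposited log2 values were fitted with limma 3.58.1 in R 4.3.3 (group means over all 9 libraries, mean-variance trend, two-sided moderated test). Genes entered if 3 or more libraries exceeded a log2 CPM of 0, which left 15251, with Benjamini-Hochberg adjustment over all of them and calls below 0.05. The code was tested on simulated data. GENCODE M21 on GRCm38 gave transcript lengths and positions, where 95.6% of symbols matched a single gene. Over the 14602 tested genes with a length, the differences from the SG mean followed transcript length with a Spearman rho of -0.406 in YSGr replicate 3, -0.523 and -0.504 in YSGnr replicates 2 and 3, and between -0.112 and 0.171 in the other 6 libraries.

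The 10 genes and the lists beside them were chosen with earlier results of these data known. The naming rule admits the 10 genes, Yap1, Xist and Ddx3y, per list and comparison up to 4 called genes with the largest change (or, where none was called, up to 2 of the most abundant, as values), and the 5 genes most correlated with the mean of the 10. Not every gene it admits is named: the other cell type lists are mostly given as counts. A gene that this rule admits is not reported here. Atoh1, Yam1 and Lars2 were named after their values were seen. The lists not named by role above hold markers of granule progenitors and Hedgehog tumours, mature granule neurons, dividing cells, astrocytes and Bergmann glia, oligodendrocyte progenitors, myelin, ependyma and choroid plexus, endothelium, mural cells and fibroblasts, microglia and macrophages, and Purkinje cells. Alternatives were filters (none, or log2 CPM above 1), a 1 CPM pseudocount, quantile or median scaling, fits of only the 6 libraries compared, array weights, robust empirical Bayes or an untrended variance, a replicate block, a length and GC trend removed, the block with that trend removed, each library left out, and YSGr replicate 3 with YSGnr replicate 1 left out. Removal of YSGnr replicate 1 together with the length and GC trend was added after seeing the data.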

Additional observations from a re-analysis of the deposited data

Results flagged for a closer look

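Id4 was the 1 gene of the 10 whose change against SG differed between YSGr and YSGnr by a test of the difference itself. The SG mean cancels in that difference, so the test is the YSGr against YSGnr comparison given above and not a further one. Its log2 fold change against SG was 0.49 in YSGr and -1.08 in YSGnr, and the difference was 1.57 (SE 0.301, limma adjusted p = 0.0334). It was higher in every YSGr library than in every YSGnr library. With 1 library left out the difference lay between 1.34 and 1.96, and it was called in 2 of 9 such fits. The SG libraries enter the test through the spread that all groups share, and the SD of Id4 was 0.047 in SG, 0.686 in YSGr and 0.275 in YSGnr. With the 6 libraries of YSGr and YSGnr alone, 0 of 15251 tested genes were called, so Id4 was not.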

How the results depend on the processing

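Of 690 alternative log2 fold changes, 567 kept direction and side of the threshold, 70 passed it, 27 lost it and 26 turned sign; none of those that turned was called either way. The number of the 10 genes called in YSGr against SG, YSGnr against SG and YSGr against YSGnr was 2, 2 and 1, and with each library left out it ranged from 0 to 7, 0 to 7 and 0 to 4. It was 9, 7 and 5 with array weights and again with YSGr replicate 3 and YSGnr replicate 1 left out, 2, 6 and 0 with the 6 libraries of a comparison, 3, 2 and 3 with the length and GC trend removed, and 4, 4 and 2 with YSGnr replicate 1 left out and that trend removed. It was 2, 3 and 2 with the stricter filter and with the pseudocount, and 2, 2 and 1 under the other alternatives without a block.

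Calls over all genes, 1608, 512 and 910, ranged from 328 to 4257, 19 to 3332 and 1 to 6528 with each library left out. They were 8582, 7155 and 9410 with array weights, 7556, 8074 and 9867 with both libraries left out, and 2778, 2160 and 3887 with YSGnr replicate 1 left out and the trend removed. With 6 libraries YSGnr against SG gave 1190 calls and YSGr against YSGnr 0 (limma, 3368 at an unadjusted p below 0.05). YSGr against YSGnr gave 316 with median scaling, 568 without the variance trend and 1577 (1120 higher, 457 lower) with the length and GC trend removed.

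The replicate number as a block left the 10 genes at 2, 2 and 1 calls, and YSGnr against SG at 341 calls over all genes. The block with the length and GC trend removed gave 3, 1 and 2, and 1372 calls over all genes in YSGr against YSGnr. Same-numbered libraries correlated between -0.226 and 0.236 in their deviations from the group means, so the numbers were not read as pairs.

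Signs turned for Tnc in YSGr against SG, at 0.285 with array weights and 0.289 with both libraries left out (with each library left out, -0.417 to 0.289). Prom1 in YSGnr against SG turned to 0.05 with YSGnr replicate 1 left out and the trend removed. The others were differences of YSGr from YSGnr. Nes was -0.169 with array weights, -0.257 with the trend removed, with or without the block, -0.187 with both libraries left out and -0.41 with YSGnr replicate 1 and the trend removed (left out singly, -0.134 to 0.417). Msi1 was -0.002 with quantile normalization and -0.059 with the trend removed, with or without the block (-0.125 to 0.255). Cd44 was -0.158 with array weights, -0.049 with the trend removed, with or without the block, -0.241 with both libraries left out and -0.264 with YSGnr replicate 1 and the trend removed (-0.113 to 0.358). Fabp7 was -0.014 with array weights and -0.067 with both libraries left out (-0.173 to 0.431).

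YSGnr replicate 1, with 41.0 to 977 estimated reads per gene of the 10, limits the precision of YSGnr, and a fit without 1 library of a group rests on 2. The cause of these changes was not tested.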
